A study of Mus musculus with 6 samples.

Results

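The genes described here encode the subunits of the mitochondrial respiratory chain that are made in the nucleus. They were taken by symbol among protein-coding genes: Nduf followed by a, b, c, s or v and a number, Ndufab1, Sdha to Sdhd, and symbols that begin with Uqcr, Cox4 to Cox8 or Atp5. The rule used no measured value and left out the complex I assembly factors (Ndufaf-). It found 85 of the 49671 genes in the table: 38 of complex I, 4 of complex II, 8 of complex III, 18 of complex IV and 17 of complex V. Of 95 symbol matches, 10 were processed pseudogenes and were left out. The read counts were high enough to test 81 of the 85. The other 4 were Ndufa4l2, with 34 reads over all libraries, and Cox7b2, Cox8b and Cox8c, with no read in any library, which allows up to 3 reads in each.

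Complex I takes electrons from NADH and complex II from succinate, and both pass them to ubiquinone. Complex III hands them on through cytochrome c to complex IV, which reduces oxygen, and the protons pumped by complexes I, III and IV drive ATP synthesis by complex V. Blood stem cells are known for leaning on glycolysis while quiescent and for using oxidative phosphorylation more as they begin to divide and differentiate. A few members are less simple than their symbols: Ndufa4 is now assigned to complex IV, Cox7a2l is a factor that joins complexes III and IV into supercomplexes, and Atp5s is not a structural subunit.

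Messenger RNA was sequenced from LSK cells of BALB/c mice, the bone marrow fraction without lineage markers that carries Sca-1 and Kit on its surface and holds blood stem cells and multipotent progenitors. Marrow enriched for stem and progenitor cells received either a retrovirus that knocks down Cxxc5 (shCxxc5, 3 libraries) or one without a target among mouse genes (shCtrl, 3 libraries). Cxxc5 encodes a CXXC-type zinc finger protein, a class known for binding CpG sites without methylation. GFP-positive LSK cells were sorted and pooled across animals, and each library came from 20000 to 50000 cells. Libraries carry the numbers 2, 3 and 4 in both groups, and the labels give neither the age of the mice nor the number of hairpins used. No label says that a number stands for a separate infection. The p-values therefore describe variation from library to library, part or all of which may be technical.

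Library totals ran from 15002414 to 27754019 counts. Cxxc5 itself stood at 82.2, 59.9 and 57.9 CPM (reads scaled to library size, with edgeR's TMM factors) in shCtrl replicates 2, 3 and 4 and at 6.74, 17.4 and 17.9 in shCxxc5, so each shCxxc5 library was below every shCtrl library. In both groups the library numbered 2 was unlike the other 4. Ly6a, which encodes the sorting marker Sca-1, was at 46.4 and 33.1 CPM there against 703 to 804 CPM elsewhere, while Kit lay between 82.4 and 110 CPM in all 6. Summed over 14 listed megakaryocyte genes the level was 7254 and 1702 CPM in shCtrl and shCxxc5 replicate 2 and 303 to 491 CPM in the others, and the neutrophil granule enzyme Mpo reached 2914 CPM in shCxxc5 replicate 2 against 346 to 391 CPM in the other 5. Their part in the results below was not tested, and in bulk libraries fewer cells of a type and less RNA per cell cannot be told apart. Relative variation between libraries (edgeR's biological coefficient of variation) was 0.312 with all 6 and 0.0294 with replicates 3 and 4 alone, so the comparison is given both ways and by number.

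To compare genes with each other, counts were divided by exon length and scaled to TPM, here over protein-coding genes. TPM is a per-length measure with an equal total in each library. Exon length took in the exons of all annotated transcripts of a gene. It can exceed the length of the transcript present, which lowers the level, so the order of genes and complexes depends on it. Among the nuclear members, which leave out the mitochondrially encoded subunits, the catalytic core of the ATP synthase was the most abundant part on this scale. Atp5a1 and Atp5b, its alpha and beta subunits, had median levels of 2181 and 1812, and the ranges over libraries, 2061 to 2249 and 1772 to 1963, did not overlap. The next were the complex IV genes Cox6b1 (1170), Cox4i1 (1076), Cox6a1 (928) and Cox8a (796), and the range of Cox4i1 (1038 to 1136) overlapped that of Cox6b1 (1102 to 1283) and that of Cox6a1 (886 to 1049). The median over the tested members was 198 in complex I, 490.5 in complex III, 305 in complex IV and 290 in complex V, and the 4 complex II genes lay between 162 (Sdhc) and 675 (Sdhd).

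For each subunit with tissue-specific isoforms, the isoform known from most tissues was the abundant one. Cox4i1 was at a per-length level of 1076 against 29.9 for Cox4i2, the isoform of lung and low oxygen. Cox6a1 was at 928 against 9.82 for Cox6a2, and Cox7a2 at 624 against 17.0 for Cox7a1, the heart and muscle isoforms. Cox6b1 was at 1170 against 31.2 for the testis isoform Cox6b2. Cox7b was at 592 and Cox8a at 796, while Cox7b2, Cox8b and Cox8c had no read. Ndufa4 was at 536 and its hypoxia-induced relative Ndufa4l2 at 0.998. In each of these sets the ranges over the 6 libraries did not overlap.

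**Figure D1:**
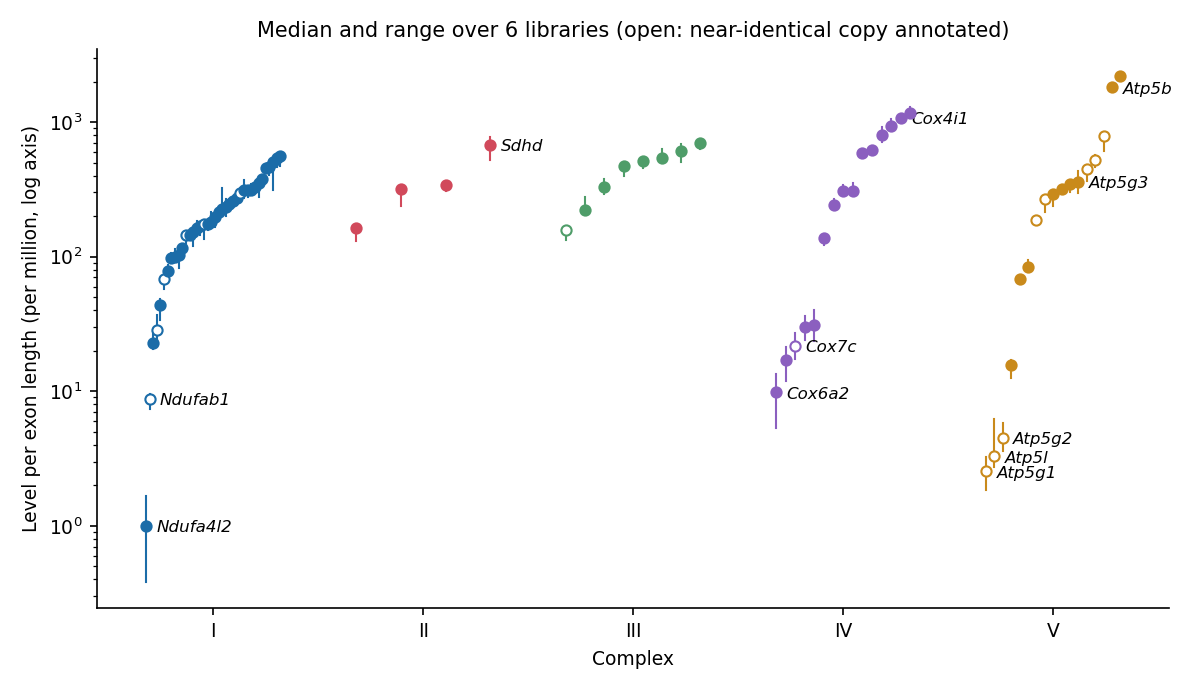
Level of each member with at least 1 read, by complex, in TPM over protein-coding genes (log axis): points are medians and lines the range over 6 libraries, and open points mark members with a near-identical annotated copy. Atp5a1 is at the top with a median of 2181, and Atp5g1, Atp5l, Atp5g2 and Ndufab1, all open points, lie between 2.54 and 8.75.

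Of the tested members, the 4 with the lowest levels have near-identical copies elsewhere in the genome, among which reads can be split or lost. Of the 81 tested members, 16 have a transcript with an annotated copy of at least 95% identity over at least 50% of its length. Their median per-length level was 152 against 305 for the other 65. Atp5g1, Atp5g2 and Atp5g3 encode the same mature c-subunit of the membrane rotor. Atp5g3, without such a copy, was at 357, whereas Atp5g1 (2.54) and Atp5g2 (4.51) have copies. The processed copy of Atp5g1, Gm10039, held 2797 reads against 419 for Atp5g1. Copies of Atp5l and Ndufab1 held only 34 and 19 reads against 877 and 1959. The exon lengths used for Atp5g1, Atp5l and Ndufab1 were long (4912, 6443 and 6883 bases), which also lowers their levels. Levels of Atp5g1, Atp5g2, Atp5l (3.28, with 9 copies) and the mitochondrial acyl carrier Ndufab1 (8.75, with 2 copies) are therefore uncertain. Exon bases are shared with an antisense gene in 26 tested members and with a same-strand neighbour in 5, of which 8 and 2 also have such copies, and since no source used here gives the strand setting of the counting, reads of such partners cannot be told apart.

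The first question was whether the complexes differed between shCxxc5 and shCtrl cells. Over all 6 libraries no member passed the test, and the median of each complex was slightly above 0. Without shCtrl replicate 2 the median was -0.004 in complex I, -0.038 in complex II and 0.008 over all members. That fit holds replicate 2 in shCxxc5 alone, so the group effect and the difference of replicate 2 cannot be told apart in it. With all 6 libraries the median fitted log2 fold change was 0.07 for complex I, 0.07 for complex II, 0.12 for complex III, 0.05 for complex IV and 0.09 for complex V. It was 0.08 over all 81 members beside -0.02 over all genes tested. Values above 0 were found for 67 of 81 members (82.7%), beside 45.9% of genes. By edgeR's quasi-likelihood test 0 of 81 members had a Benjamini-Hochberg adjusted p under 0.05 (0.94 to 0.997), beside 0% of 14637 genes. At an unadjusted p under 0.05 there were 3 members, Atp5k, Sdhd and Uqcrh, beside 3.93% of genes. DESeq2 also called 0 members (smallest adjusted p 0.597) beside 0.167% of genes with an adjusted p, and limma-voom called 0 (smallest adjusted p 0.95) beside 0%. With the replicate number as a block, edgeR called 0 (smallest adjusted p 0.357) beside 0% and DESeq2 0 (smallest adjusted p 0.254) beside 1.3%. The block changed no call here.

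Within libraries of equal number the medians were highest in replicate 2. For replicates 2, 3 and 4 the median log2 ratio of shCxxc5 over shCtrl was 0.13, 0.05 and 0.06 in complex I and 0.15, 0.04 and 0.04 in complex II. In complex III it was 0.28, 0.08 and 0.04. In complex IV it was 0.11, 0.07 and 0.03, and in complex V 0.14, 0.09 and 0.04. Over all members the medians were 0.15, 0.07 and 0.05, beside -0.04, -0.01 and -0.00 over all genes tested. The complex medians thus spanned 0.11 to 0.28 in replicate 2 and 0.03 to 0.06 in replicate 4, and differences between complexes were not tested.

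**Figure D2:**
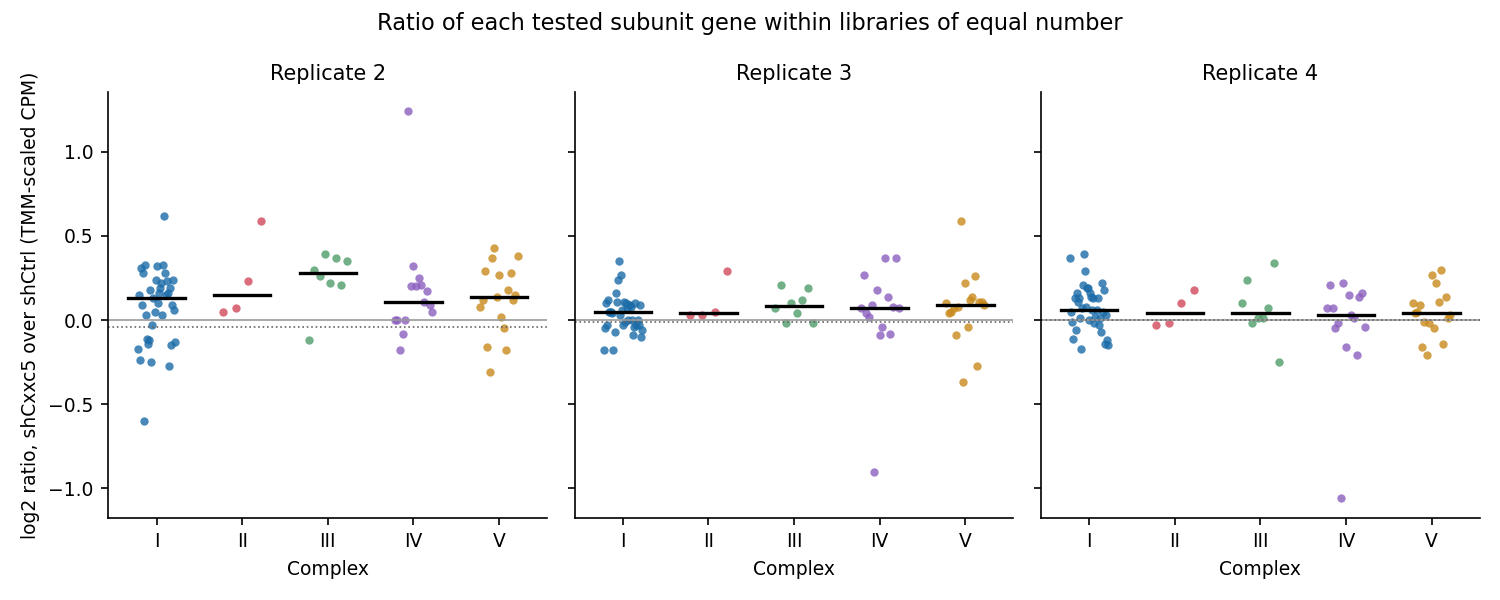
Log2 ratio of shCxxc5 over shCtrl in TMM-scaled CPM for each tested member, by complex, in 1 panel for each replicate number: points are genes, thick bars the complex medians and the dotted line the median over all genes tested. Complex III has the highest median in replicate 2 (0.28), all medians lie between 0.03 and 0.09 in replicates 3 and 4, and the isolated complex IV point (above 1 in replicate 2, near -1 in the others) is Cox6a2.

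Higher levels in shCxxc5 in all 3 pairs were found for 35 of 81 members (43.2%), beside 19% of genes, and lower levels in all 3 pairs for 3 (beside 22.4%). By complex the 35 were 14 of 37, 2 of 4, 5 of 8, 6 of 15 and 8 of 17 in complexes I to V. In 13 members every shCxxc5 library was above every shCtrl library, beside 6.72% of genes: Ndufa4, Ndufb3, Ndufb7, Ndufs1, Sdhd, Uqcrc1, Uqcrfs1, Uqcrh, Cox6b1, Atp5a1, Atp5b, Atp5k and Atp5mpl. The reverse held for 1 member, Ndufv3, beside 6.35% of genes. Of these names, Ndufb3, Ndufb7, Uqcrc1, Atp5a1 and Ndufv3 were chosen after their values were seen.

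Replicates 3 and 4 alone gave the narrow spread, and there 16 of 81 members rose in shCxxc5 and 2 fell by edgeR's quasi-likelihood test with Benjamini-Hochberg adjustment, beside 11% of 14193 genes higher and 9% lower. The members that rose were 7 of 37 in complex I, 1 of 4 in complex II, 2 of 8 in complex III, 2 of 15 in complex IV and 4 of 17 in complex V, and both that fell belong to the Cox7a and Cox6a families of complex IV. The sizes were small: the median log2 fold change over the 81 members was 0.07, and the largest rise was 0.33. With the replicate number as a block, 17 rose and 6 fell, beside 12.6% and 10.6% of genes. The block added Atp5mpl among those that rose and Ndufa7, Ndufv2, Uqcrq and Atp5e among those that fell. Scaled by library totals in place of TMM, 10 members rose and 7 fell, beside 7.89% and 11.3% of genes, and over all genes the split moved from 1555 higher and 1278 lower to 1120 higher and 1606 lower.

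Calls for 6 members held under all 14 alternatives run on replicates 3 and 4: Ndufb10, Sdhd, Uqcrh, Cox6b1, Atp5k and Atp5g3. Uqcr11 held in 13 of them. The other 11 calls were each lost in at least 4. DESeq2 called 8 members higher and 0 lower, beside 7.39% and 5.38% of genes, and with the block 6 higher and 0 lower, beside 4.73% and 3.27%. It gave no adjusted p to 4 members, and with the block to 11, and these shares leave out such genes.

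**Figure D3:**
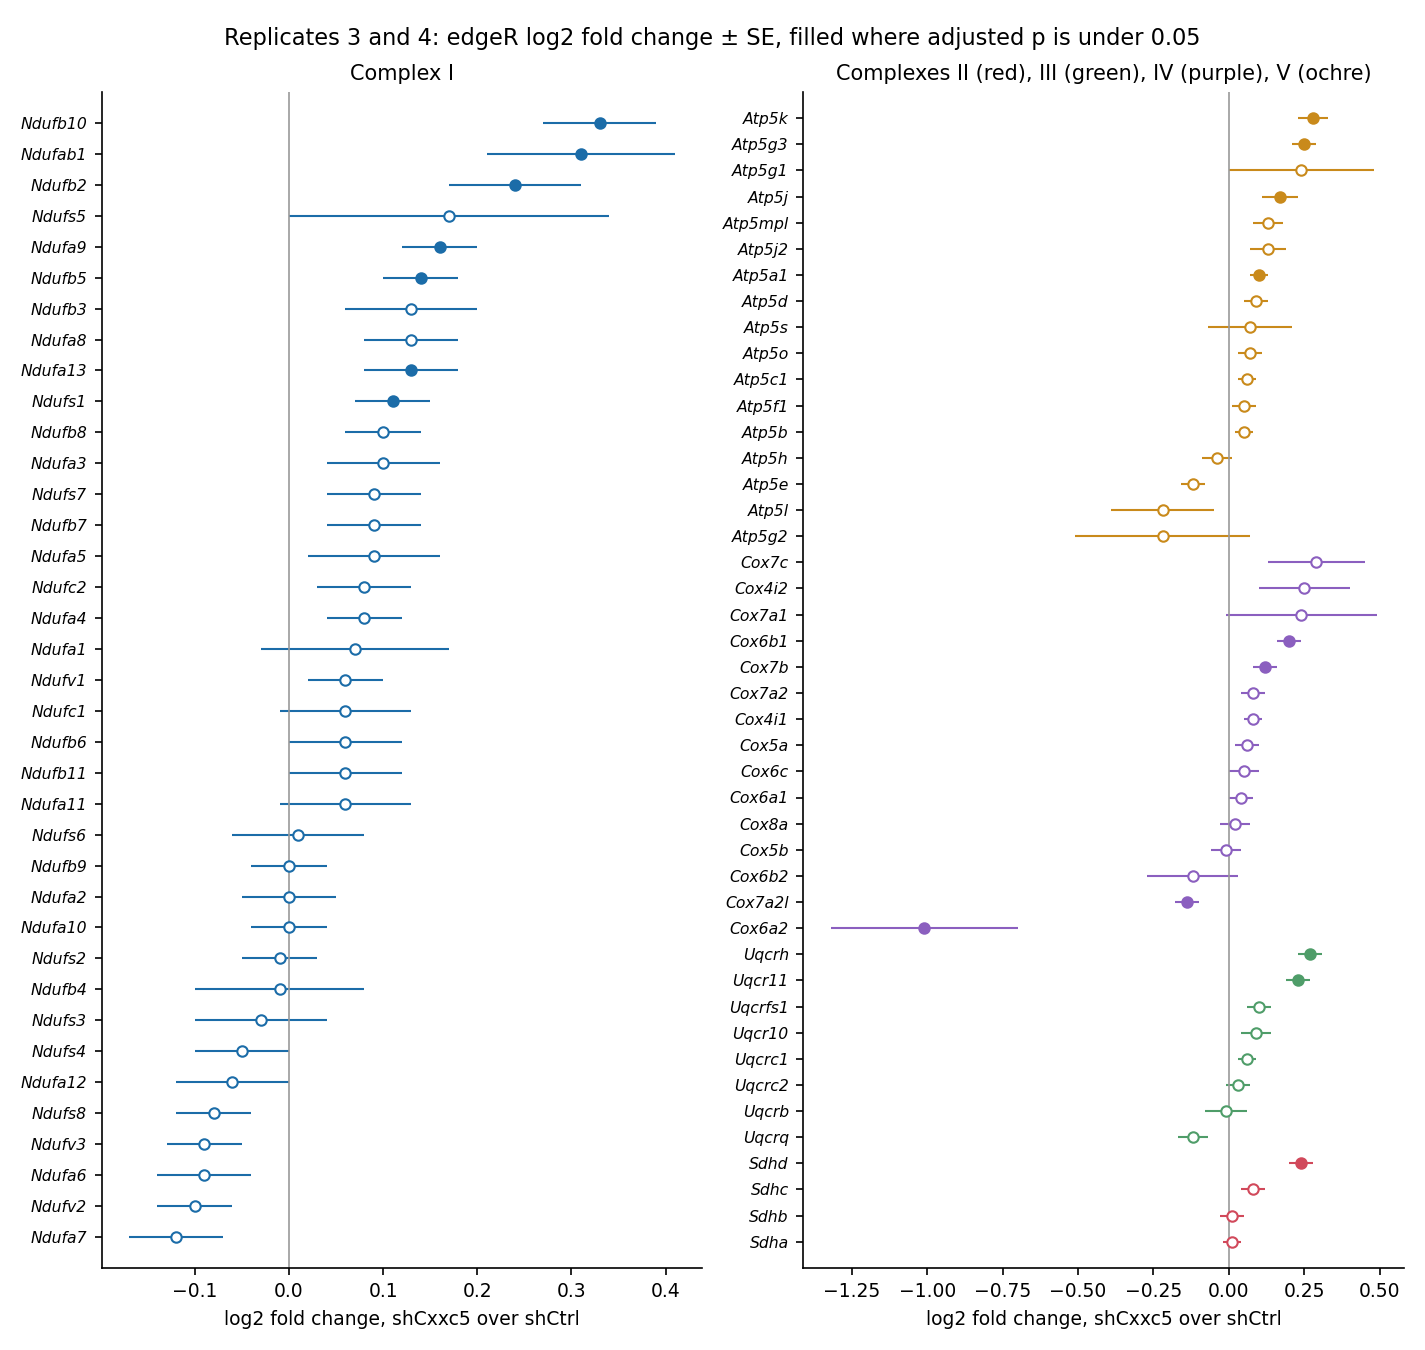
Log2 fold change of shCxxc5 over shCtrl in replicates 3 and 4 by edgeR for the 81 tested members, with SE as bars and filled points where the adjusted p was under 0.05; the 2 panels have different horizontal scales. Filled points lie mostly right of 0, led by Ndufb10 (0.33), with Cox6a2 (-1.01) and Cox7a2l (-0.14) to the left.

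In complex I, Ndufs1 and Ndufv1 stand for the core subunits that carry electrons from NADH. Ndufs1, the iron-sulphur subunit of the NADH-oxidising arm, was at 189, 205 and 201 CPM in shCtrl replicates 2, 3 and 4 and at 230, 217 and 220 CPM in shCxxc5. The groups did not overlap, and the largest step was in replicate 2. In replicates 3 and 4 Ndufs1 had a log2 fold change of 0.11 (SE 0.04; edgeR adjusted p = 0.0412), which 9 of the 14 alternatives did not keep. Ndufv1, which binds NADH and flavin, was at 155, 180 and 194 CPM in shCtrl and 183, 191 and 197 CPM in shCxxc5. Its groups overlapped, with a log2 fold change of 0.11 (SE 0.10) over 6 libraries.

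The clearest complex I member was Ndufb10, an accessory subunit of the membrane arm on chromosome 17 (24722060 to 24724478, minus strand, GRCm38). It was at 60.3, 55.3 and 54.1 CPM in shCtrl replicates 2, 3 and 4 and at 59.0, 70.4 and 66.3 CPM in shCxxc5. The replicate 2 libraries were alike, and the rise was seen in replicates 3 and 4. There the log2 fold change was 0.33 (SE 0.06; edgeR adjusted p = 0.000104), while over all 6 libraries it was 0.21 (SE 0.10; edgeR adjusted p = 0.94). Ndufa9, an accessory subunit next to the quinone site, was at 116, 133 and 129 CPM in shCtrl and 131, 143 and 150 CPM in shCxxc5. Each pair was higher in shCxxc5 although the groups overlapped, and it rose in replicates 3 and 4 (0.16, SE 0.04; edgeR adjusted p = 0.00714).

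Ndufa4 was at 157, 193 and 190 CPM in shCtrl and at 198, 199 and 206 CPM in shCxxc5, with the lowest value in shCtrl replicate 2 and no overlap. Its log2 fold change was 0.16 (SE 0.10) over 6 libraries and 0.08 (SE 0.04) in replicates 3 and 4, and neither passed. Ndufab1 was at 15.7, 14.7 and 13.5 CPM in shCtrl and 13.2, 17.4 and 17.7 CPM in shCxxc5, lower in the replicate 2 pair and higher in the other pairs. It rose in replicates 3 and 4 (0.31, SE 0.10; edgeR adjusted p = 0.028), a call that leaving out any 1 of the 4 libraries ended. Ndufc2, a small subunit of the membrane arm, was at 57.6, 99.7 and 101 CPM in shCtrl and 88.4, 106 and 105 CPM in shCxxc5. The lowest value was again shCtrl replicate 2, and the log2 fold change in replicates 3 and 4 was 0.08 (SE 0.05). The other called members of complex I, Ndufa13, Ndufb2 and Ndufb5, were named after their values were seen. Their log2 fold changes were 0.13 to 0.24 in replicates 3 and 4. All 3 share exon bases with an antisense gene, as do Ndufs1 (498 bases), Ndufab1 (269) and Ndufa9 (67).

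In complex II, succinate dehydrogenase, the membrane anchor Sdhd differed from the other 3 genes in its values. Sdhd lies on chromosome 9 (50596357 to 50603812, minus strand, GRCm38). It was at 157, 203 and 208 CPM in shCtrl replicates 2, 3 and 4 and at 237, 249 and 235 CPM in shCxxc5, so each shCxxc5 library was above every shCtrl library. The means were 190 ± 28.0 (SD, n = 3) and 241 ± 7.60 (SD, n = 3). Over 6 libraries the log2 fold change was 0.34 (SE 0.12; edgeR adjusted p = 0.94), the highest of all members. In replicates 3 and 4 it was 0.24 (SE 0.04; edgeR adjusted p = 3.6e-05).

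The catalytic flavoprotein Sdha was at 310, 376 and 377 CPM in shCtrl and 321, 383 and 370 CPM in shCxxc5. The iron-sulphur subunit Sdhb was at 130, 188 and 197 CPM in shCtrl and 136, 191 and 194 CPM in shCxxc5. Sdhc, the other membrane anchor, was at 104, 138 and 139 CPM in shCtrl and 122, 143 and 149 CPM in shCxxc5. In all 3 the groups overlapped and the low libraries were those of replicate 2. Log2 fold changes in replicates 3 and 4 were 0.01 (SE 0.03), 0.01 (SE 0.04) and 0.08 (SE 0.04), and none passed. A test of Sdhd against the other 3 was not made.

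In complex III the hinge protein Uqcrh, which sits at the docking site of cytochrome c, was at 150, 168 and 165 CPM in shCtrl replicates 2, 3 and 4 and at 173, 192 and 208 CPM in shCxxc5. The groups did not overlap. Its log2 fold change was 0.25 (SE 0.10; edgeR adjusted p = 0.94) over 6 libraries and 0.27 (SE 0.04; edgeR adjusted p = 3.2e-05) in replicates 3 and 4. Uqcr11, a small supernumerary subunit, was at 79.6, 101 and 99.6 CPM in shCtrl and 97.8, 117 and 118 CPM in shCxxc5. Each pair was higher in shCxxc5, and the groups overlapped only through shCxxc5 replicate 2. It rose in replicates 3 and 4 (0.23, SE 0.04; edgeR adjusted p = 0.00041). The Rieske iron-sulphur protein Uqcrfs1, which carries out the electron transfer, was at 133, 164 and 166 CPM in shCtrl and 172, 178 and 174 CPM in shCxxc5. Its groups did not overlap, and the log2 fold change in replicates 3 and 4 was 0.10 (SE 0.04; edgeR adjusted p = 0.0767), which did not pass.

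In complex IV, cytochrome c oxidase, Cox6b1 joins the monomers of the dimer. It was at 191, 206 and 209 CPM in shCtrl replicates 2, 3 and 4 and at 219, 233 and 243 CPM in shCxxc5. The groups did not overlap and the pairs gave like ratios (0.20, 0.18 and 0.22 on the log2 scale). Cox6b1 rose in replicates 3 and 4 (log2 fold change 0.20, SE 0.04; edgeR adjusted p = 0.000288). Cox7b rose there too, by 0.12 (SE 0.04; edgeR adjusted p = 0.0337), from 185 and 185 CPM to 196 and 204 CPM, and 9 of 14 alternatives did not keep that call.

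The main isoforms Cox4i1 and Cox6a1 did not pass the test. Cox4i1 was at 402, 432 and 448 CPM in shCtrl and 403, 453 and 471 CPM in shCxxc5. Cox6a1 was at 180, 167 and 169 CPM in shCtrl and 180, 178 and 167 CPM in shCxxc5, and both pairs of groups overlapped. Cox7a2 (0.08, SE 0.04) and Cox8a (0.02, SE 0.05) did not pass in replicates 3 and 4 either.

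The 2 members that fell in replicates 3 and 4 were Cox6a2 and Cox7a2l. Cox6a2, the heart and muscle isoform, rested on few reads: replicates 2, 3 and 4 held 21, 52 and 36 of them in shCtrl against 64, 27 and 18 in shCxxc5. In CPM these were 0.887, 2.32 and 2.42 against 2.22, 1.20 and 1.11, so replicate 2 went the other way. Cox6a2 also shares 70 exon bases with Itgad on the other strand. Its log2 fold change in replicates 3 and 4 was -1.01 (SE 0.31; edgeR adjusted p = 0.0187), and leaving out any 1 library ended the call. Cox7a2l was at 104, 130 and 137 CPM in shCtrl and 112, 123 and 119 CPM in shCxxc5. The groups overlapped over 6 libraries, and in replicates 3 and 4 its log2 fold change was -0.14 (SE 0.04; edgeR adjusted p = 0.0268), which 9 of 14 alternatives kept. The other low isoforms Cox4i2 (4.76 to 7.62 CPM), Cox6b2 (7.04 to 11.1 CPM) and Cox7a1 (1.56 to 3.08 CPM) did not pass.

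In complex V, the ATP synthase, the catalytic beta subunit Atp5b was at 1914, 2000 and 1996 CPM in shCtrl replicates 2, 3 and 4 and at 2086, 2062 and 2053 CPM in shCxxc5. The groups did not overlap, but the log2 fold change in replicates 3 and 4 was 0.05 (SE 0.03; edgeR adjusted p = 0.275). Atp5k, the e subunit that helps the enzyme form dimers, was at 75.1, 74.9 and 76.3 CPM in shCtrl and 85.0, 89.7 and 93.8 CPM in shCxxc5. The shCtrl libraries were nearly equal and all shCxxc5 libraries lay above them. Over 6 libraries its log2 fold change was 0.25 (SE 0.08; edgeR adjusted p = 0.94), and in replicates 3 and 4 it was 0.28 (SE 0.05; edgeR adjusted p = 0.00013). Atp5k has 1 annotated near-identical copy, Atp5k-ps2, which held 13 reads against 10568.

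Among the c-subunit genes, Atp5g3 was at 158, 201 and 210 CPM in shCtrl and 191, 234 and 254 CPM in shCxxc5. Every pair was higher in shCxxc5, and the groups overlapped through the low replicate 2 libraries. It rose in replicates 3 and 4 (0.25, SE 0.04; edgeR adjusted p = 5.1e-05). Atp5g1 (2.36 to 4.03 CPM) and Atp5g2 (1.61 to 2.43 CPM) overlapped between the groups and did not pass. Atp5mpl, a small subunit at the base of the rotor, was at 93.1, 98.2 and 101 CPM in shCtrl and 102, 106 and 111 CPM in shCxxc5. It had no overlap and a log2 fold change of 0.13 (SE 0.05; edgeR adjusted p = 0.0556) in replicates 3 and 4, which passed only with the block (adjusted p = 0.0356 by edgeR). Atp5a1 and Atp5j, named after their values were seen, rose by 0.10 and 0.17. On the other strand Atp5a1 shares 129 exon bases with Haus1, and Atp5j shares 397 with Gabpa.

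**Figure D4:**
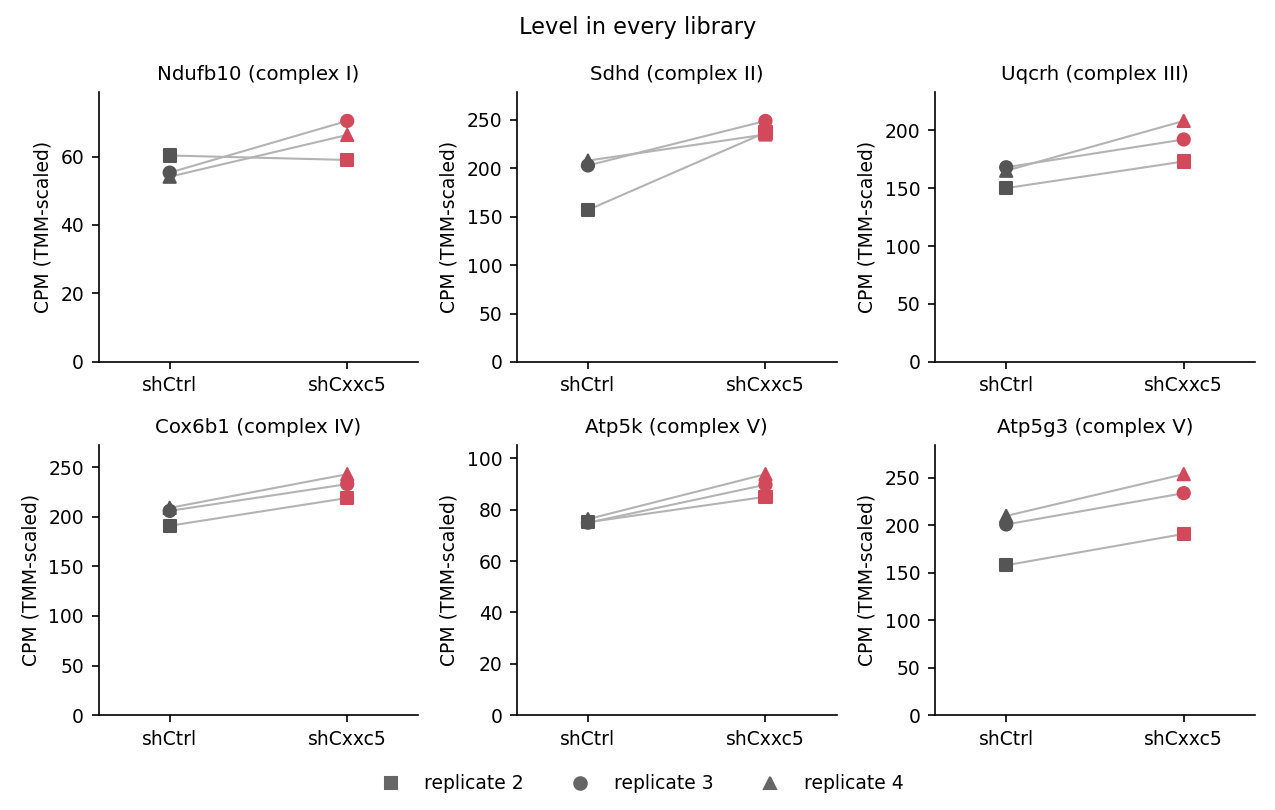
TMM-scaled CPM in each library for the 6 members whose call in replicates 3 and 4 held under all alternatives, with lines joining libraries of equal number and each vertical axis starting at 0. All pairs rise to shCxxc5 except replicate 2 of Ndufb10 (60.3 to 59.0 CPM), and the steps are small beside the levels.

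Nuclear respiratory genes are known for promoters bound by NRF1, by the ETS-family factor GABP and by YY1. RefSeq windows of 300 bases, from 250 before the start to 50 after it (GRCm38.p6), were found for 69 of the 85 members. They were searched on both strands for an NRF1 core (TGCGCA), the NRF1 palindrome (GCGCA followed directly by TGCGC), an ETS core (CCGGAAG) and a YY1 core (ATGGCGG). An NRF1 core was in 26.1% of member windows beside 14.5% of the windows of all genes tested, and the palindrome in 7.25% beside 2.1%. An ETS core was in 21.7% beside 18.3%, and a YY1 core in 13% beside 8.25%. Of 9 member windows with a YY1 core, 8 belong to complex I (24.2% of its windows), which supplied 33 of the 69 member windows. The palindrome can overlap the NRF1 core but does not by itself contain it. A match describes the letters in the window and is not a site of binding.

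Among the 14 members with a window that rose in replicates 3 and 4, an ETS core was in 5 (35.7%) and an NRF1 core in 3 (21.4%), beside 18.9% and 28.3% of the other 53 tested members. Median CpG counts were 17 and 20. The following stretches of 3 of the 6 members with the most stable calls are shown because they hold the bases just before the start of the gene and lie outside annotated exons. They are written 5′ to 3′ along the gene (minus strand), with the ETS core in capitals.
Sdhd, chr9:50603850-50603909: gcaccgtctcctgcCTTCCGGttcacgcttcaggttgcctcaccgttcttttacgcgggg
Uqcrh, chr4:116075072-116075221: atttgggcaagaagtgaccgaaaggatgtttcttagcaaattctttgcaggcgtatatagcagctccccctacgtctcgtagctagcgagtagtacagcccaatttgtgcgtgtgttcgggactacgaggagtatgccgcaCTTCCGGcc
Atp5g3, chr2:73911327-73911476: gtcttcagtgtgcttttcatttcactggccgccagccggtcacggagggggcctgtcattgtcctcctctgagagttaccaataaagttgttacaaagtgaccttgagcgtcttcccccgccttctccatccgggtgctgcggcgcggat

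The ETS core lies 46 bases before the RefSeq start in Sdhd and 10 bases before it in Uqcrh, and it reads CTTCCGG on the gene's strand in both. The Sdhd stretch is short because Timm8b begins on the opposite strand. Sdhd also has NRF1 cores 189 and 80 bases before its start, outside the printed stretch. Cox6b1 has an ETS core 28 bases before its start. Atp5k has the NRF1 palindrome 50 bases before its start and an ETS core from base 13 after it. Ndufb10 has an NRF1 core across its start (first base at -3), and Atp5g3 had none of the 4 motifs in its window. Gabpa, which encodes the DNA-binding part of GABP, lay between 114 and 130 CPM in all 6 libraries and Nrf1 between 97.0 and 114 CPM, and neither passed in replicates 3 and 4.

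Between replicate 2 and the other 4 libraries the members had a median log2 difference of -0.17, beside -0.00 over all genes. Per-length scaling put it at -0.08, beside 0.10 over all genes. With the group in the fit, 27 of 81 members were lower in replicate 2 and 1 was higher by edgeR's quasi-likelihood test with Benjamini-Hochberg adjustment, beside 18.7% of genes lower and 17.7% higher. The 27 were 15 of 37 in complex I, 3 of 4 in complex II, 2 of 8 in complex III, 3 of 15 in complex IV and 4 of 17 in complex V. The median log2 difference, replicate 2 minus replicates 3 and 4, was -0.21, -0.29, -0.18, -0.10 and -0.12 in complexes I to V. Both replicate 2 libraries were below the other 4 in 40 members (beside 25.4% of genes) and above them in 5 (beside 24%).

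Sdhb had the largest difference among the members that fell, at -0.54 (SE 0.05; edgeR adjusted p = 0.000897), followed by Ndufc2 at -0.51 (SE 0.12) and Cox4i2 at -0.51 (SE 0.14). Sdha and Sdhc were lower as well, by -0.25 and -0.33, while Sdhd at -0.20 (SE 0.09; edgeR adjusted p = 0.119) did not pass. Atp5l, a subunit of the membrane part of the ATP synthase, was the member that was higher, at 0.81 (SE 0.16; edgeR adjusted p = 0.0111). It was at 8.20 and 9.97 CPM in the replicate 2 libraries and 4.75 to 5.89 CPM in the others, with 9 near-identical copies annotated. The count depended on the libraries: leaving out 1 library at a time gave 13 calls (without shCtrl replicate 3) to 53 (without shCxxc5 replicate 2), and library totals gave 16. Several marker lists move with this difference. All 13 tested megakaryocyte genes and 8 of 9 erythroid genes were higher in replicate 2 (median log2 differences 5.03 and 3.08). All 15 interferon response genes were lower (-2.70). Of 5 genes listed for LSK cells (median -0.89), Ly6a, Ly6e, Cd34 and Flt3 were lower, and Kit (-0.19) did not pass. Only Ly6a and Kit among them encode the surface markers that define the fraction. Summed levels of interferon response genes were 391 and 428 CPM in replicate 2 against 2550 to 2681 CPM, and those of erythroid genes 851 and 1446 CPM against 530 to 617 CPM. In shCxxc5 replicate 2 alone, granulocyte and monocyte progenitor genes summed to 6401 CPM (1241 to 1928 CPM in the other 5) and mast cell and basophil genes to 1882 CPM (341 to 619 CPM). The part of these lists in the members' values was not tested.

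The difference of the shCxxc5 effect between the replicate 2 pair and the other pairs was called for members about as often as for genes in general. A product term in edgeR's quasi-likelihood test called 29 of 81 members (35.8%), beside 35.8% of genes. Of these, 18 had a higher and 11 a lower log2 effect in the replicate 2 pair, beside 16.8% and 19% of genes. DESeq2 called 10 (12.3%), beside 18.9%. Replicate 2 has 1 library per group in this test.

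**Figure D5:**
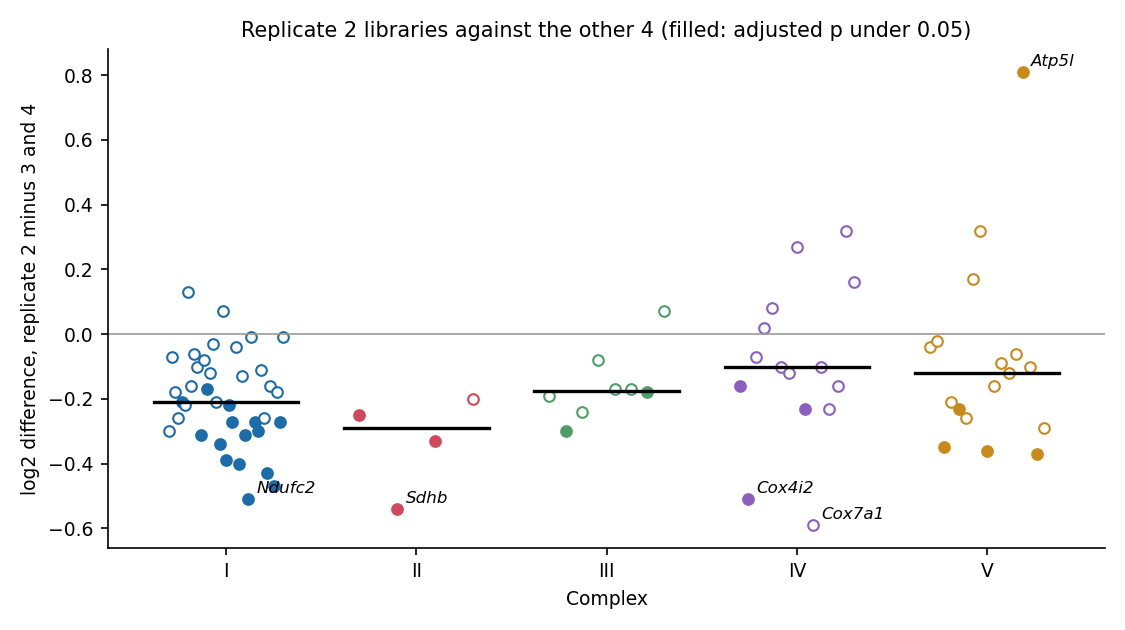
Log2 difference between the replicate 2 libraries and the other 4, with the knockdown group in the fit, for each tested member by complex; bars are complex medians and filled points have an adjusted p under 0.05. All 4 complex II genes and 35 of 37 complex I genes lie below 0, and Atp5l stands alone at 0.81.

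The wider pathway was described from lists. The 13 subunits encoded by mitochondrial DNA had 7 testable genes. The other 6 (mt-Nd3, mt-Nd4l, mt-Co2, mt-Co3, mt-Atp6 and mt-Atp8) were listed at 0 in all 6 libraries, although every respiring cell uses them, so these zeros do not measure expression. In replicates 3 and 4, 5 of the 7 rose (mt-Nd1, mt-Nd2, mt-Nd5, mt-Nd6 and mt-Cytb) and 1 fell. Over all genes 11% were higher and 9% lower. The complex I subunit mt-Nd6 had a log2 fold change of 0.47 (SE 0.11) and mt-Nd1 of 0.15 (SE 0.04), and mt-Co1, the catalytic subunit of complex IV, fell by 0.14 on the log2 scale (SE 0.03). In shCtrl replicate 2 mt-Co1 was at 2978 CPM against 4989 to 5895 CPM in the other 5 libraries. In the replicate 2 pair the log2 ratio was below 0 for mt-Nd2 (-0.43), mt-Nd5 (-0.22) and mt-Cytb (-0.24). It was above 0 for mt-Nd1 (0.49), mt-Nd6 (0.34) and mt-Co1 (0.74). Over 6 libraries 0 of the 7 were called. In replicates 3 and 4 DESeq2 called 2 higher and 1 lower, beside 7.39% and 5.38% of genes. Library totals gave 3 higher and 1 lower, beside 7.89% and 11.3%.

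Of 14 complex I assembly factors, 1 rose in replicates 3 and 4 (Ndufaf4, 0.24, SE 0.06) and 1 fell (Ndufaf3, -0.27). Of 31 assembly factors of complexes II to V, 3 rose and 0 fell: Cox19 (0.38, SE 0.08), Coa3 (0.23, SE 0.06) and Atpaf2 (0.20). Among 18 enzymes of the tricarboxylic acid cycle 5 rose and 0 fell, Idh3a (0.26, SE 0.04), Suclg2 (0.30, SE 0.05), Pdhx (0.18), Ogdh (0.14) and Fh1 (0.11). Among 10 genes of mitochondrial membrane content 4 rose and 0 fell, the outer membrane channel Vdac1 (0.26, SE 0.04), the chaperonin Hspd1 (0.31, SE 0.04) and the ATP carriers Slc25a4 and Slc25a5 (0.16 each). Of the 12 tested regulators of mitochondrial biogenesis, the coactivator Pprc1 rose (0.20) and the mitochondrial methyltransferase Tfb1m fell (-0.26). Of the 8 tested electron carriers and other chain parts outside the rule, 0 rose and 1 fell by edgeR (Smim20, -0.27), with 1 more at an unadjusted p under 0.05, cytochrome c1 (Cyc1, 0.10, SE 0.04). By DESeq2 in replicates 3 and 4, 2 of the 18 cycle enzymes and 4 of the 10 membrane content genes rose. So did 1 of the 14 and 1 of the 31 assembly factors. It called 0 of the regulators and other chain parts, and 0 genes of these lists fell, beside 7.39% of genes higher and 5.38% lower. Library totals also gave 2 of the 18 cycle enzymes, beside 7.89% of genes higher. Members of these lists beyond the 3 of smallest p over 6 libraries were named after their values were seen. The edgeR counts stand beside 11% of genes higher and 9% lower. Over 6 libraries 0 genes of these lists were called. In the replicate 2 pair the log2 ratio was below 0 for Pprc1 (-0.55), Ogdh (-0.44) and Atpaf2 (-0.09), which rose in replicates 3 and 4. It was above 0 for Ndufaf3 (0.42), Smim20 (0.42) and Tfb1m (0.01), which fell there. The other called genes named here had the same sign in that pair.

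Of 17 listed glycolysis genes, 6 rose and 2 (Pfkp and Slc2a1) fell in replicates 3 and 4, beside 11% and 9% of genes. Lactate dehydrogenase Ldha was at 1290 and 1337 CPM in shCtrl replicates 3 and 4 and at 1603 and 1695 CPM in shCxxc5 (log2 fold change 0.33, SE 0.03), and the glucose transporter Slc2a1 went from 93.7 and 99.3 CPM to 72.1 and 69.8 CPM (-0.43, SE 0.05). In replicate 2, 11 of the 17 were higher than in replicates 3 and 4 and 0 were lower by edgeR. By the same fit 27 of the 81 respiratory members were lower and 1 was higher. Over all genes 17.7% were higher and 18.7% lower, and the lists were not tested against each other. Among 20 listed S and G2/M phase genes 11 rose and 0 fell in replicates 3 and 4, beside 11% and 9% of genes. Their summed levels there were 7486 and 7452 CPM in shCtrl and 8134 and 8047 CPM in shCxxc5. The part of the cell cycle genes in the values of the members was not tested.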

How the data were processed

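The authors deposited raw read counts per gene as a table of 49671 Ensembl identifiers with 6 libraries. Per the submitters' processing notes, STAR 2.5.2b, featureCounts 1.5.1 and DESeq2 were used with GRCm38; no source used here gives the annotation release or the strand setting. Per the labels' protocols, a stranded mRNA kit was used, with single-read or paired-end runs. Symbols came from GENCODE M21 (49412 identifiers matched; the others held 0.0557% of counts).

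Counts were compared with edgeR 4.0.16 (R 4.3.3): TMM scaling, filterByExpr, robust quasi-likelihood tests over all genes tested (14637, or 14193 in replicates 3 and 4), Benjamini-Hochberg threshold 0.05. SE is the log2 fold change divided by the root of the F statistic. Pair ratios use log2 CPM with a prior count of 2. DESeq2 1.42.0, limma 3.58.1 (voom), other scalings and filters, a replicate block and left-out libraries were alternatives. Copies were searched with BLAST 2.17.0 (at least 95% identity over at least 100 bases). Code was tested on simulated data.

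Members, lists and tests were chosen with earlier results of these data known. Named members were: per complex the 3 of smallest unadjusted p, all Sdh genes, 1 or 2 core subunits, isoform sets, and the 3 largest calls per direction in replicates 3 and 4 and in replicate 2. Deviations from group means correlated at 0.670, 0.554 and 0.489 between libraries of equal number (2, 3 and 4). Across numbers 3 and 4 the correlations were 0.489 and 0.475, so only number 2 sets the pairs apart. The check cannot show whether libraries numbered 3 and 4 are paired by number.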

Additional observations from a re-analysis of the deposited data

Results flagged for a closer look

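The effect of shCxxc5 was compared between the replicate 2 pair and pairs 3 and 4 by a product term in edgeR's quasi-likelihood test. With 1 library per group in replicate 2, only replicates 3 and 4 contribute to its error (2 degrees of freedom), and the same spread is taken for replicate 2. It called 29 of 81 members (35.8%), the same share as of all genes (35.8%), so the count is not a result about the members. DESeq2 called 10 (12.3%), beside 18.9% of genes.

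Among the named members, the log2 difference of the effect, replicate 2 pair minus the others, was 2.34 for Cox6a2 (few reads), 0.54 for Ndufc2, 0.36 for Sdhd, 0.27 for Uqcrfs1, 0.26 for Ndufa4, 0.25 for Cox7a2l, and 0.18 each for Ndufs1 and Ndufv1. It was -0.36 for Ndufb10 and -0.56 for Ndufab1. For every one of these members with a difference above 0, the lowest of the 6 values was shCtrl replicate 2. That library held 7254 CPM of megakaryocyte genes, and the part of those genes was not tested.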

How the results depend on the processing

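Over 6 libraries, 0 members were called under every alternative run, the replicate block included (smallest adjusted p 0.357 by edgeR; 0.254 by DESeq2 with the block). In replicates 3 and 4, where 18 members were called, DESeq2 called 8 and DESeq2 with the replicate block 6, leaving out a library 7 (without shCxxc5 replicate 4) to 12, and the edgeR block 23. For replicate 2 against the others (28 calls), library totals gave 16 and left-out libraries 13 to 53. The difference of the effect (29 calls) gave 10 by DESeq2. Left-out libraries moved the median log2 fold change from 0.008 to 0.141 over all members, -0.004 to 0.123 in complex I, -0.038 to 0.186 in complex II, 0.041 to 0.194 in complex III, 0.05 to 0.114 in complex IV and 0.041 to 0.155 in complex V, each lowest without shCtrl replicate 2 except complex IV. The cause of these shifts was not tested. In replicates 3 and 4 no called value of a named member changed sign under the alternatives run, all of which leave out replicate 2. In the replicate 2 pair the log2 ratio had the other sign for Cox6a2 (1.24), Ndufab1 (-0.25), Cox7a2l (0.11) and Ndufb10 (-0.03). Signs of the calls for replicate 2 against the others and for the difference of the effect were not checked in this way. For replicate 2 minus the others, per-length scaling put the median log2 difference of all genes at 0.10 (-0.01 with TMM) and that of the members at -0.08 (-0.18), with 54 of 81 members below 0 (70). DESeq2 with the block and per-length scaling were added after the data were seen. Depth limits Cox6a2, Cox7a1, Atp5g1 and Atp5g2, each under 5 CPM.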
